A study of Homo sapiens with 16 samples.

Results

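Gene expression in Caco-2 cells given free fatty acids (FFA) was compared between cells grown with HepG2 cells (co-culture) and cells grown alone (mono-culture). The comparison used 4 of the 16 libraries of the study, 2 for each culture. It covered all 5389 genes whose mean over these 4 libraries was at least 10 CPM, of 16783 genes with a read in them and 60623 genes listed. CPM is the number of reads of a gene as a share of all reads in the library, on a fixed scale, so levels are not corrected for transcript length and were compared within a gene only.

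Caco-2 is a line from a human colon tumour that serves as a model of the intestinal epithelium, and HepG2 is a line from a human liver tumour that serves as a model of hepatocytes. In the study, both lines were kept in a microfluidic device, either together with medium circulating between the gut and liver chambers or each line alone. All 4 libraries came from Caco-2 cells that had received palmitic and oleic acid, in a molar ratio of 1 to 2 and a total of 1 mM, in medium with fatty acid-free albumin. The groups therefore shared the line, the fatty acids and the medium, and by their titles differed in the presence of HepG2 cells. The labels used here do not say whether devices, days or sequencing runs were shared between the groups. The sample labels put RNA collection at 1 day of treatment, and the study also describes cells treated for longer. Its main mRNA-seq figure covers these Caco-2 conditions after the longer treatment, and its supplement after 1 day. The library titles begin with LTC, which the labels do not explain, so the duration in these libraries is uncertain. Another 4 Caco-2 libraries, 2 in co-culture and 2 in mono-culture without FFA (control), gave the same culture comparison without fatty acids and entered the same fit. Both lines are tumour lines held as a single line each, and the labels call the 2 libraries of a group replicates without stating that they came from separate cultures. The methods of the study state that its mRNA-seq was repeated in independent experiments, without saying which libraries came from which. P values thus measure the spread between these libraries.

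Enterocytes take up dietary fatty acids, bind them to fatty acid-binding proteins and export them with cholesterol in lipoprotein particles, while sterol synthesis is switched on by sterol regulatory element-binding proteins when membrane cholesterol is low. Misfolded proteins in the cytosol release heat shock factors, which bind repeats of a short heat shock element upstream of chaperone genes. A different stress pathway, the integrated stress response, slows translation and raises the transcription factor ATF4 and its targets, and saturated fatty acids such as palmitate are known to engage stress pathways of this kind.

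The libraries held 974654 and 811671 reads in co-culture with FFA and 404378 and 622280 reads in mono-culture with FFA, so the floor of detection, taken as 3 reads, lay between 3.08 and 7.42 CPM. Floors of this kind cover counting error only. The replicates of each group differed by more than sampling noise (chi-square over degrees of freedom between 1.52 and 2.63, largest in co-culture with FFA). Of 12 markers of intestinal epithelium, 3 (the adhesion protein CDH17, the brush border protein VIL1 and PHGR1) had at least 10 CPM in all 4 libraries, the transcription factor CDX1 had no read, and the summed level of the 12 was 214 and 196 CPM in co-culture and 158 and 161 CPM in mono-culture. An extraction label names myoblasts, and 8 of 12 myoblast markers, among them MYOD1, MYOG and DES, had no read in these 4 libraries. The other markers included 2, TNNT1 and TNNC1, with at least 10 CPM in all 4 libraries. The summed level of the 12 was 134 and 107 CPM in co-culture and 131 and 85.2 CPM in mono-culture.

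Between co-culture and mono-culture with FFA, 108 of 5389 genes (2.00%) passed an adjusted p of 0.05 in limma's test. Of these, 40 genes (0.742% of those tested) were higher in co-culture and 68 (1.26%) were lower. The genes that fell included heat shock genes, led by DNAJB1, targets of the integrated stress response, sterol genes led by MSMO1, and the Wnt antagonist DKK1. The genes that rose included the fatty acid-binding protein FABP1, the apolipoproteins APOA1, APOC3 and APOM, the glutathione transferase GSTA1, AFP and TTR, 3 protein-coding genes of the mitochondrial genome and 4 copies of a ribosomal RNA gene (RNA5-8SN). Of the 108 genes, 98 were protein-coding. In all 108 the replicates of the groups did not overlap, which also held for 1236 genes above (22.9%) and 1186 genes below (22.0%) of all those tested. The median log2 difference of all genes was 0.03. In 5 of the 108 (HSPA6, TRIB3, PSTK, CPSF3 and PCK2), and in 591 of all genes tested, the lower group averaged under 10 CPM, so the gene passed the filter only through the group where it was high; these 5 are described by their values without a p. The count depended on single libraries and on the model of the spread. It was 21 without co-culture FFA replicate 1, 54 without mono-culture FFA replicate 1 and 34 without mono-culture FFA replicate 2, with the lone replicate of the group then assumed to vary like the other groups. Limma's prior variance was allowed to follow the level of a gene, and with a constant one 0 genes passed, while 575 had an unadjusted p under 0.05. Among the called genes described here by the rule for named genes, DNAJB1, HSPA1A, HSPA1B, HSP90AA1, MSMO1, DKK1, AL135905.2, FABP1, AFP and the RNA5-8SN copies passed whichever library was left out, and each of the others lost the call without at least 1 of the 4 FFA libraries.

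**Figure D1:**
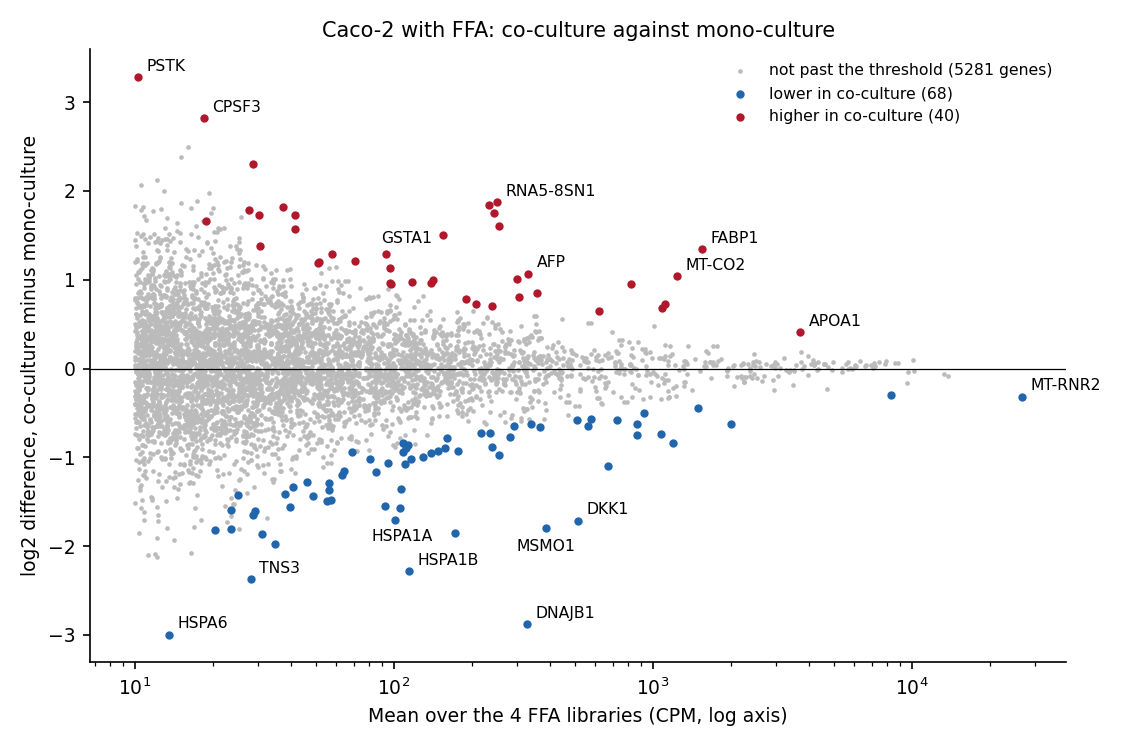
Each point is 1 of the 5389 genes, with its mean over the 4 FFA libraries (CPM, log axis) against its log2 difference (co-culture minus mono-culture); blue and red points passed the threshold. DNAJB1 lies at -2.88 and FABP1 at 1.34, and the smallest differences that pass, such as -0.32 for MT-RNR2, belong to genes of high level.

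Cytosolic heat shock genes were the list with the most genes that fell. Of 28 genes tested in a list of 38 chaperones, co-chaperones and other heat shock targets, 10 (35.7%) passed the threshold and all 10 were lower in co-culture, against 1.26% of all genes. The median log2 difference of the list was -0.60, against 0.03 for all genes. Of the 28, 24 were lower, against 46.9% of all genes below 0. Summed over the whole list of 38, tested or not, heat shock transcripts amounted to 8707 and 8622 CPM in co-culture and 12023 and 13002 CPM in mono-culture.

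DNAJB1, an HSP40 co-chaperone that delivers unfolded proteins to HSP70, showed the largest fall on the log2 scale in the list. It stood at 42.1 and 137 CPM in co-culture and 556 and 574 CPM in mono-culture (log2 difference -2.88 ± 0.27 SE, adjusted p = 2.76e-08). The co-culture libraries differed from each other by more than the mono-culture ones did, yet both lay far below them, and the ratio of group means was 6.32. Without FFA, DNAJB1 was at 311 and 427 CPM in co-culture and 550.1 and 416 CPM in mono-culture (log2 difference -0.39, adjusted p = 0.516).

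The stress-inducible HSP70 genes moved with it. HSPA1A measured 44.1 and 117 CPM in co-culture and 277 and 249 CPM in mono-culture (log2 difference -1.85 ± 0.26 SE, adjusted p = 2.82e-05). HSPA1B, its neighbour on chromosome 6, measured 17.4 and 76.4 CPM in co-culture and 173 and 193 CPM in mono-culture (log2 difference -2.28 ± 0.34 SE, adjusted p = 5.84e-05). Their coding sequences are identical at 1919 of 1923 positions, so reads of one can be counted for the other and the values of the pair are not independent. In both genes, co-culture replicate 1 was the lowest library. HSPA6, another inducible HSP70 gene that was outside the list, had 1 and 3 reads in co-culture and 7 and 20 reads in mono-culture, and its co-culture levels lay at or below the floor of 3 reads. HSPA1A and HSPA1B did not pass in DESeq2.

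The abundant cytosolic chaperones had smaller log2 differences. HSPA8, the constitutive HSP70, was at 634 and 658 CPM in co-culture and 939.7 and 1259.9 CPM in mono-culture (log2 difference -0.75 ± 0.13 SE, adjusted p = 0.00054). HSP90AA1, the inducible cytosolic HSP90, was at 762 and 851 CPM in co-culture and 1296 and 1388 CPM in mono-culture (log2 difference -0.73 ± 0.12 SE, adjusted p = 0.0002). HSP90AB1, the constitutive HSP90, was at 1287 and 1257 CPM in co-culture and 1637 and 1824 CPM in mono-culture (log2 difference -0.44 ± 0.11 SE, adjusted p = 0.0208). In each of them, both co-culture libraries were below both mono-culture libraries. HSP90AB1 did not pass when any 1 of the 4 FFA libraries was left out or with median-ratio scaling, and HSPA8 did not pass without mono-culture FFA replicate 2.

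The co-chaperones HSPH1, which recycles nucleotide on HSP70, DNAJB6, an HSP40 protein, and STIP1, which links HSP70 to HSP90, also fell. HSPH1 was at 23.6 and 39.4 against 69.2 and 93.2 CPM (log2 difference -1.37, adjusted p = 0.0133). DNAJB6 was at 45.1 and 60.4 against 111 and 125 CPM (log2 difference -1.16, adjusted p = 0.0127). STIP1 was at 90.3 and 66.5 against 148 and 130.2 CPM (log2 difference -0.83, adjusted p = 0.041). Just outside the threshold were FKBP4, an HSP90 co-chaperone, at -1.55 (adjusted p = 0.0514), the HSP90 co-chaperone PTGES3 at -0.62 (adjusted p = 0.0557) and the small heat shock protein HSPB1 at -0.92 (adjusted p = 0.0606). Members at or above 0 included the mitochondrial co-chaperonin HSPE1 at 0.18 (adjusted p = 0.576), HSBP1 at 0.04 (adjusted p = 0.957), PPID at 0.46 (adjusted p = 0.611) and BAG2 at 1.03 (adjusted p = 0.476), none of which passed. The list gave 6 calls without co-culture FFA replicate 1 and 5 without mono-culture FFA replicate 2, and its median stayed between -0.62 and -0.50 when any 1 of the 4 libraries was left out.

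**Figure D2:**
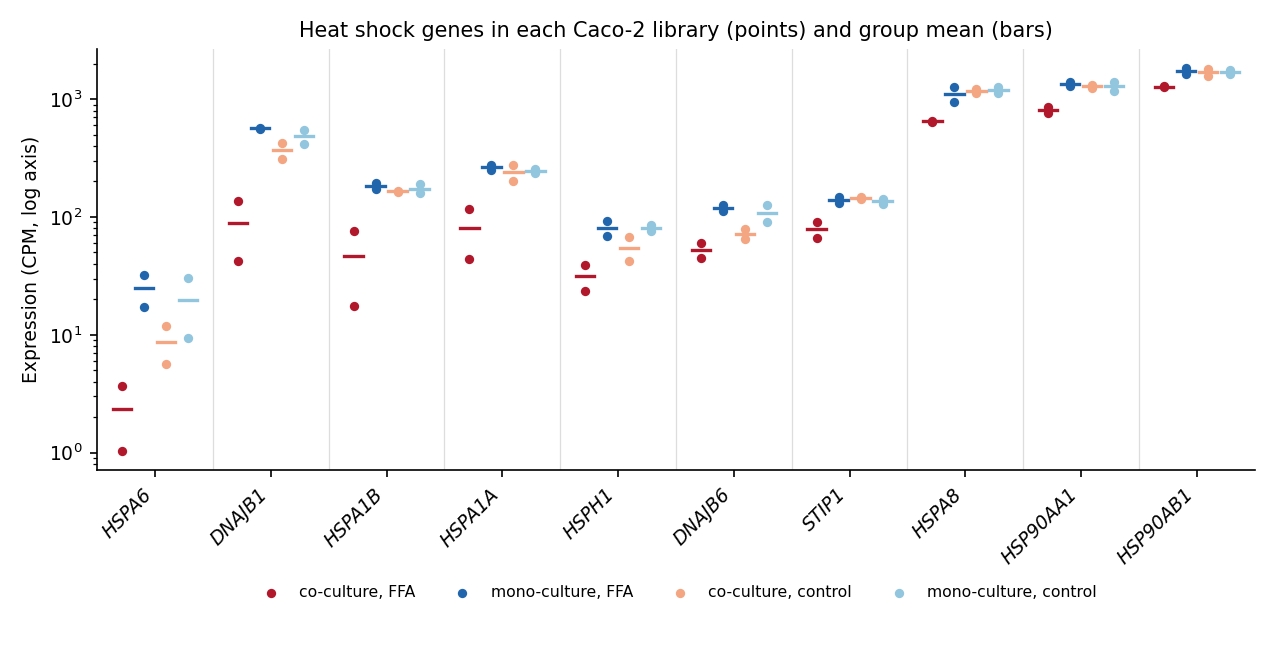
Expression (CPM, log axis) of 9 of the 10 heat shock genes that passed and of HSPA6 in all 8 Caco-2 libraries; points are libraries, bars are group means, and 2 libraries make each group. The co-culture FFA libraries (dark red) lie below the mono-culture FFA libraries (dark blue) in every gene shown, and for DNAJB1, HSPA1A and HSPA1B co-culture replicate 1 lies lowest.

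Because heat shock factors act through heat shock elements, the sequence before the transcription start is shown for some of the heat shock genes that were lower in co-culture. Counting HSPA6, which is outside the list and entered the test only through its mono-culture level, 10 of these genes were in the RefSeq promoter table (GRCh38.p14). In windows from 250 bases before to 50 bases after the start, an element of 3 units, GAANNTTCNNGAA on either strand, occurred in 5 of the 10 (DNAJB6, HSP90AA1, HSP90AB1, HSPA6 and HSPA8), in 0.66% of the 3942 tested genes with a promoter and in 0.49% of all 35116 promoters. An element of 2 units, GAANNTTC, which every element of 3 units contains, occurred in 8 of the 10, in 6.54% of the tested genes and in 6.77% of all promoters. Genes with more than 1 start in the table had more than 1 window to match. HSPA6 is counted in both of these numbers. Of the 24 list genes with a promoter, called or not, 8 had the longer element and 13 the shorter one. The list was made of known heat shock targets, so an excess of the element over all promoters was built in and says nothing about these libraries. A match of letters is a description and was not tested for binding. In the following 250 bases before the start (GRCh38.p14), written 5′ to 3′ along the gene, capitals mark the element of 3 units in HSPA8, HSPA6 and HSP90AA1 and the element of 2 units in HSPA1A, HSPA1B and DNAJB1.
HSPA8 (chr11:123062137-123062386, strand -): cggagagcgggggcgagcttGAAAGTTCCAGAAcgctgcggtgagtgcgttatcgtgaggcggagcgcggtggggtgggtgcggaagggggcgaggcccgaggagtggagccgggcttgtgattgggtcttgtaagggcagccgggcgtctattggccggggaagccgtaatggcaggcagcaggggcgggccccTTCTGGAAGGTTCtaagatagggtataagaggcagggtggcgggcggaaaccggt
HSPA6 (chr1:161524290-161524539, strand +): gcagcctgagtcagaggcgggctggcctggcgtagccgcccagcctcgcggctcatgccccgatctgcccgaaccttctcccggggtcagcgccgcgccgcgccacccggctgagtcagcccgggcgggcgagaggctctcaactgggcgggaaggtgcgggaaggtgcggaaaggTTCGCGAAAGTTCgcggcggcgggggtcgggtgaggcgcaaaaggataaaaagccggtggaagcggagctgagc
HSP90AA1 (chr14:102087045-102087294, strand -): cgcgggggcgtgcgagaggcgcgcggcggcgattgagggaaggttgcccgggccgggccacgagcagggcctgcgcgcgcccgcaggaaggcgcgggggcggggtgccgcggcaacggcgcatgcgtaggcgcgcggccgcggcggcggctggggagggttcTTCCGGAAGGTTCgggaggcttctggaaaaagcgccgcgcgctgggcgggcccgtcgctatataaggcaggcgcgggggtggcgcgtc
HSPA1A (chr6:31815293-31815542, strand +): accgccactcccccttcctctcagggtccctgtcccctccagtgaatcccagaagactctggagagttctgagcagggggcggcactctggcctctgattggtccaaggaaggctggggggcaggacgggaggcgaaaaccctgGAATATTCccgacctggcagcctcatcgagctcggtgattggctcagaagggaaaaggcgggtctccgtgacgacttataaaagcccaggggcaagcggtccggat
HSPA1B (chr6:31827488-31827737, strand +): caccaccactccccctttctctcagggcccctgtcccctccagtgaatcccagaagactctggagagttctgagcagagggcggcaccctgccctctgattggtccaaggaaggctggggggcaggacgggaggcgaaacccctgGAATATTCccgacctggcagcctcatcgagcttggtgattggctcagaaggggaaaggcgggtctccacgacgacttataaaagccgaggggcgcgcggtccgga
DNAJB1 (chr19:14518398-14518647, strand -): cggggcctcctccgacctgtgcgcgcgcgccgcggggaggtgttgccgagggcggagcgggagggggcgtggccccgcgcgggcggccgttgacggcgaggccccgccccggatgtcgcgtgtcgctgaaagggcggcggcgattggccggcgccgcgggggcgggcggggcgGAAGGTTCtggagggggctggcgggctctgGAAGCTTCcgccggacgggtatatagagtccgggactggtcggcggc
HSPA8 carried elements of 3 units that began 230 and 55 bases before the start, HSPA6 one at 74 bases and HSP90AA1 one at 88 bases. HSPA1A and HSPA1B carried the same 8 letters at 106 and 105 bases. DNAJB1 has more than 1 start in the table, and the window shown held elements at 77 and 47 bases.

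Genes of the integrated stress response were mostly lower in co-culture. Of 16 tested, 5 (31.2%) passed and all 5 fell, against 1.26% of all genes tested. The median log2 difference of the list was -0.67, against 0.03 for all genes. The 5 include TRIB3, which entered the test only through its mono-culture level. ATF4, the transcription factor at the centre of this response, was at 252 and 283 CPM in co-culture and 406 and 418 CPM in mono-culture (log2 difference -0.62 ± 0.16 SE, adjusted p = 0.0286). SLC3A2, the heavy chain of amino acid transporters and an ATF4 target, was at 148 and 197 CPM in co-culture and 321 and 350.3 CPM in mono-culture (log2 difference -0.97 ± 0.18 SE, adjusted p = 0.00111). Both genes had co-culture libraries well below mono-culture ones and the replicates of each group were close.

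DDIT4, an inhibitor of mTORC1 signalling, was at 21.6 and 80.1 CPM in co-culture and 91.5 and 211 CPM in mono-culture (log2 difference -1.71 ± 0.37 SE, adjusted p = 0.00989), and the higher co-culture library nearly reached the lower mono-culture library. PPP1R15A, which directs a phosphatase to eIF2 and so restores translation, was at 161 and 193 CPM in co-culture and 249.8 and 341 CPM in mono-culture (log2 difference -0.72 ± 0.19 SE, adjusted p = 0.035). TRIB3, a pseudokinase that curbs ATF4, is the last of the 5. It was named after its values were seen, entered the test only through its mono-culture level, and stood at 7.18 and 9.86 against 32.1 and 32.1 CPM. Of the list, 0 genes passed without co-culture FFA replicate 1, 3 without mono-culture FFA replicate 1 and 1 without mono-culture FFA replicate 2, with list medians of -0.64, -0.70 and -0.55. In the endoplasmic reticulum list, 1 of 22 genes passed. This was HERPUD1, a factor of ER-associated degradation, at 71.8 and 51.7 CPM in co-culture and 119 and 138 CPM in mono-culture (log2 difference -1.06 ± 0.25 SE, adjusted p = 0.0147). The ER chaperone HSPA5 was at 176 and 177 against 252 and 289 CPM (log2 difference -0.61, adjusted p = 0.0628), and the median of that list was -0.10.

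Genes of cholesterol synthesis and uptake were lower in co-culture in 18 of 22 cases, against 46.9% of all genes tested. The median log2 difference was -0.52, and 3 (13.6%) passed the threshold as lower, against 1.26% of all genes. MSMO1, a sterol C4 methyl oxidase of the late pathway, stood at 139 and 212 CPM in co-culture and 581 and 614 CPM in mono-culture (log2 difference -1.80 ± 0.18 SE, adjusted p = 3.35e-08). The groups were separated by more than the spread within either. INSIG1, which holds the sterol sensor in the ER and is itself induced when sterols are low, was at 54.4 and 64.1 CPM in co-culture and 131 and 177 CPM in mono-culture (log2 difference -1.35 ± 0.27 SE, adjusted p = 0.00292). CYP51A1, the lanosterol demethylase, was at 75.9 and 85.0 CPM in co-culture and 151 and 143 CPM in mono-culture (log2 difference -0.86 ± 0.23 SE, adjusted p = 0.035). FDFT1, squalene synthase, reached -0.56 (adjusted p = 0.0918) and did not pass. Without co-culture FFA replicate 1 or without mono-culture FFA replicate 2, 1 gene of the list remained past the threshold. Genes of fatty acid synthesis gave 0 calls in 11 by limma, with values such as -0.64 (adjusted p = 0.416) for the desaturase SCD and -0.97 (adjusted p = 0.173) for the acetyl-CoA synthetase ACSS2, and lipid droplet genes gave 0 in 11, with 0.73 (adjusted p = 0.297) for the droplet protein CIDEC. The median SE of the log2 difference was 0.32 for genes between 30 and 100 CPM, and the smallest log2 difference that passed at that level was 0.94 in size. No limit of detection was computed, and smaller differences may have been missed there.

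DKK1, a secreted Wnt antagonist, was among the genes with the smallest adjusted p. It stood at 247 and 230.4 CPM in co-culture and 883 and 697 CPM in mono-culture (log2 difference -1.71 ± 0.17 SE, adjusted p = 3.35e-08), with both co-culture libraries close together. Without FFA, DKK1 did not pass, at 466 and 398 CPM in co-culture and 482 and 317 CPM in mono-culture (log2 difference 0.14, adjusted p = 0.75).

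Of the 108 genes, 69 belonged to no list, 41 of them lower and 28 higher. SAT1, the rate-limiting enzyme of polyamine breakdown, was at 309 and 573 CPM in co-culture and 873 and 934 CPM in mono-culture (log2 difference -1.10 ± 0.17 SE, adjusted p = 0.000184). GPRC5A, an orphan receptor of epithelia, was at 13.3 and 13.5 CPM in co-culture and 64.3 and 48.2 CPM in mono-culture (log2 difference -1.97 ± 0.37 SE, adjusted p = 0.00173). RND3, an atypical small GTPase that opposes actin contractility, was at 9.23 and 17.2 against 54.4 and 43.4 CPM (log2 difference -1.86, adjusted p = 0.0103), and TNS3, a focal adhesion protein, was at 3.08 and 18.5 against 47.0 and 43.4 CPM (log2 difference -2.37, adjusted p = 0.0147). PTP4A1, a protein tyrosine phosphatase, and AL135905.2, a locus that overlaps it on the same strand of chromosome 6, gave log2 differences of -1.54 and -1.57, and their reads cannot be told apart. SAT1 did not pass without co-culture FFA replicate 1, GPRC5A without mono-culture FFA replicate 1, and RND3 and TNS3 without either of these or without mono-culture FFA replicate 2. The list of translation factors gave 3 calls in 35 (8.57%), all lower, against 1.26% of all genes tested. These were the start site selection factor EIF1 (1386 and 1778 CPM in co-culture and 2243 and 2607 CPM in mono-culture, log2 difference -0.62 ± 0.11 SE, adjusted p = 0.000647), the elongation factor EEF1A1 at -0.30 (adjusted p = 0.0221) and the helicase EIF4A2 at -0.58 (adjusted p = 0.0221). All 3 lost the call without co-culture FFA replicate 1 and without mono-culture FFA replicate 2, and EEF1A1 also in edgeR and DESeq2.

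Some further genes, chosen after their values were seen, show what else these 69 held. SDC4, a syndecan of the cell surface, was at 28.7 and 24.6 against 64.3 and 67.5 CPM (log2 difference -1.28, adjusted p = 0.0292), CD55, an inhibitor of complement, at 63.6 and 78.8 against 156 and 145 CPM (log2 difference -1.07, adjusted p = 0.0106), and AREG, a ligand of the EGF receptor, at 143 and 193 against 272 and 349 CPM (log2 difference -0.89, adjusted p = 0.0107). MAP1LC3B and ATG101, both of autophagy, gave log2 differences of -0.95 (adjusted p = 0.0147) and -1.33 (adjusted p = 0.0292). The membrane traffic GTPases ARF4 and RAB11A gave -1.02 (adjusted p = 0.0137) and -0.65 (adjusted p = 0.0391). On the higher side, PCK2, the mitochondrial form of PEPCK, was at 33.9 and 24.6 against 7.42 and 9.64 CPM, and RRBP1, a ribosome-binding protein of the ER, at 193 and 174 against 111 and 78.7 CPM (log2 difference 0.96, adjusted p = 0.0157). In each gene given by library here, the groups did not overlap. ETFB, which passes electrons from fatty acid oxidation to the respiratory chain, was at 541 and 376 against 312 and 201 CPM (log2 difference 0.85, adjusted p = 0.013) and overlaps AC008750.8 on the same strand.

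FABP1, which carries fatty acids in the cytosol of enterocytes and hepatocytes, rose most clearly among the lipid genes. It stood at 2313 and 2105 CPM in co-culture and 1083 and 699 CPM in mono-culture (log2 difference 1.34 ± 0.14 SE, adjusted p = 3.35e-08). The ratio of group means was 2.48, and each co-culture library was well above each mono-culture library. Of 17 tested genes of fatty acid oxidation and PPAR targets, FABP1 was the only one to pass. Of the 17, 13 were higher, against 53.15% of all genes tested, and the median was 0.35. The mitochondrial isomerase ECI1 reached 1.11 (adjusted p = 0.0908) and the acyl-CoA dehydrogenase ACADM -0.80 (adjusted p = 0.212).

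Of 13 tested genes of lipoprotein assembly, 3 (23.1%) rose past the threshold, against 0.742% of all genes tested. All 3 were apolipoproteins, the protein part of lipoprotein particles, and the median log2 difference of the list was 0.29. APOA1, the main protein of high-density particles, was at 4404 and 4072 CPM in co-culture and 3403 and 2997 CPM in mono-culture (log2 difference 0.41 ± 0.09 SE, adjusted p = 0.0109). APOC3, which slows triglyceride clearance, was at 1469 and 1276 CPM in co-culture and 1051 and 646 CPM in mono-culture (log2 difference 0.73 ± 0.16 SE, adjusted p = 0.00955). APOM, a carrier of sphingosine-1-phosphate, was at 173 and 138 CPM in co-culture and 81.6 and 75.5 CPM in mono-culture (log2 difference 0.97 ± 0.23 SE, adjusted p = 0.0181). For APOC3 the mono-culture libraries were far apart, while for APOA1 and APOM the replicates were closer. APOE, named after its values were seen, went the other way at 81.1 and 73.9 against 114 and 125 CPM (log2 difference -0.62, adjusted p = 0.219) and did not pass. APOA1 did not pass in edgeR or DESeq2. In this list 0 genes passed without co-culture FFA replicate 1 or without mono-culture FFA replicate 2.

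Of 18 marker genes of HepG2, 13 were tested and 2 (15.4%) passed, both higher in co-culture, against 0.742% of all genes tested. Of the 13, 11 had a log2 difference above 0, against 53.15% of all genes tested. AFP, the fetal serum protein, was at 406 and 489 CPM in co-culture and 195 and 229.8 CPM in mono-culture (log2 difference 1.07 ± 0.18 SE, adjusted p = 0.000486), and TTR, a carrier of thyroxine and retinol, was at 1457 and 1212 CPM in co-culture and 913 and 752 CPM in mono-culture (log2 difference 0.68 ± 0.13 SE, adjusted p = 0.00121). Several of these markers are also expressed by Caco-2 cells alone. Summed over the 18 markers, Caco-2 libraries reached 18.3% and 19.1% of the level in HepG2 mono-culture control libraries in co-culture and 14.6% and 13.7% in mono-culture. Over 42 markers chosen by level, high in HepG2 and low in Caco-2 cells alone, the sums were 1.15% and 0.79% in co-culture and 0.97% and 0.27% in mono-culture, so the difference of the group means was 0.351 percentage points, against 4.57 over the 18 markers. TTR did not pass without co-culture FFA replicate 1 or without mono-culture FFA replicate 2. The markers ITIH3 and CP had 0 or 1 read in each of the 4 libraries. Some markers are high in HepG2 and low in Caco-2 cells and hold less signal of Caco-2 cells themselves, for example the fibrinogen chains and AMBP. AMBP was at 12.9 CPM in co-culture and 9.39 CPM in mono-culture, a difference of 0.103% of its 3416 CPM in HepG2, FGB differed by -0.0301% of its HepG2 level, FGA by 0.27% and FGG by 0.494%. The difference of AFP was 6.05%, that of FABP1 12.7% and that of TTR 63.3% of the HepG2 level of the gene. ALB measured 421 and 965 against 356 and 561 CPM (log2 difference 0.51, adjusted p = 0.275). In bulk RNA, a changed number of cells of a type and a changed amount of RNA per cell cannot be told apart.

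GSTA1, a glutathione transferase of the intestine and liver, stood at 290.3 and 175 CPM in co-culture and 81.6 and 75.5 CPM in mono-culture (log2 difference 1.51 ± 0.24 SE, adjusted p = 0.000193), and it had a mean of 0.49 CPM in HepG2 mono-culture controls. Without co-culture FFA replicate 1, the higher of its pair, GSTA1 did not pass. It was the only one of 29 tested antioxidant genes to pass, and the median of that list was 0.00. TXNRD1, thioredoxin reductase, was at -1.18 (adjusted p = 0.0557).

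**Figure D3:**
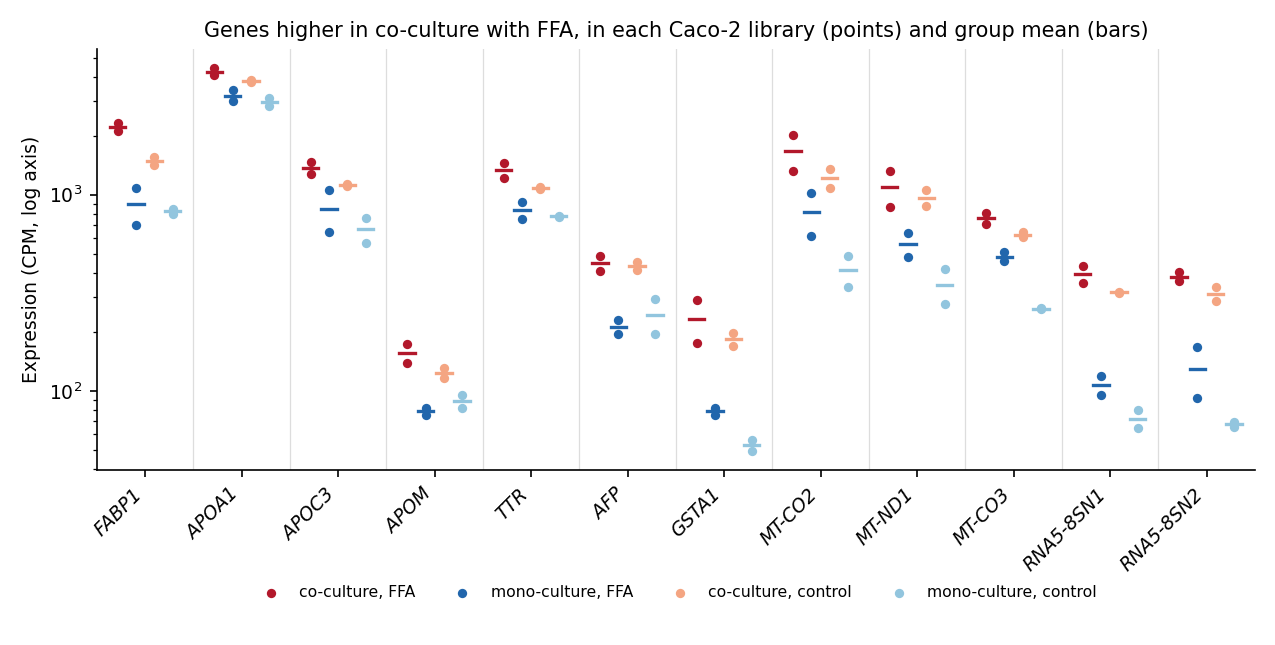
Expression (CPM, log axis) of 12 genes that were higher in co-culture with FFA, in all 8 Caco-2 libraries; points are libraries and bars are group means. In each gene the co-culture FFA libraries (dark red) lie above the mono-culture FFA libraries (dark blue), and in the control libraries (orange and light blue) co-culture is also above mono-culture.

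Of the 15 genes of the mitochondrial genome, 12 were higher in co-culture, against 53.15% of all genes tested, with a median log2 difference of 0.39. Those that rose past the threshold were subunits of the respiratory chain. MT-CO2 of complex IV was at 2003 and 1323 CPM in co-culture and 1016 and 617 CPM in mono-culture (log2 difference 1.04 ± 0.18 SE, adjusted p = 0.000647). MT-ND1 of complex I was at 1314 and 869 CPM in co-culture and 638 and 479 CPM in mono-culture (log2 difference 0.95 ± 0.18 SE, adjusted p = 0.00132). MT-CO3 of complex IV was at 806 and 712 CPM in co-culture and 509 and 458 CPM in mono-culture (log2 difference 0.65 ± 0.14 SE, adjusted p = 0.0109). The large ribosomal RNA MT-RNR2 differed from them, at 23232 and 24174 CPM in co-culture and 30056 and 28979.6 CPM in mono-culture (log2 difference -0.32 ± 0.06 SE, adjusted p = 0.00113), and it did not pass in edgeR, in DESeq2, or after quantile or median-ratio scaling of the libraries. Mitochondrial transcripts in all made up 3.50% and 3.41% of reads in co-culture and 3.96% and 3.66% in mono-culture, so the sum, which the ribosomal RNA leads, went the other way from the median. Without co-culture FFA replicate 1, and likewise without mono-culture FFA replicate 2, 0 mitochondrial genes rose past the threshold. Of 77 nuclear respiratory chain genes, 65 were higher, against 53.15% of all genes tested. NDUFB2, a subunit of complex I, was the only one to pass, at 297 and 224 CPM in co-culture and 163 and 148 CPM in mono-culture (log2 difference 0.73 ± 0.20 SE, adjusted p = 0.0404).

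The short ribosomal RNA of the large subunit, which is cut from the precursor made by RNA polymerase I, rose in all 4 tested gene copies on chromosome 21. RNA5-8SN1 stood at 431 and 356 CPM in co-culture and 119 and 94.8 CPM in mono-culture (log2 difference 1.87 ± 0.20 SE, adjusted p = 1.16e-07). The others had log2 differences of 1.84 in RNA5-8SN3, 1.75 in the copy listed as 5_8S_rRNA and 1.61 in RNA5-8SN2. These copies are not independent measurements. Their sequences in GRCh38 are identical over all 153 bases, for example in RNA5-8SN1 at chr21:8439823-8439975 on the plus strand, and reads were divided between them by the counting.
RNA5-8SN1: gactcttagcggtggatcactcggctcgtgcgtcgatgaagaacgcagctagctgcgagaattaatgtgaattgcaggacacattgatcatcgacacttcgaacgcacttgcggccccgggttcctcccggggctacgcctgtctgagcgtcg
The library kit primes reverse transcription at poly(A) tails, which this RNA normally lacks. Genes of ribosomal RNA took 0.166% and 0.138% of reads in co-culture and 0.0579% and 0.0368% in mono-culture with FFA, and 0.13% and 0.116% against 0.032% and 0.0271% without FFA. The part of library preparation in this difference was not tested. Small nucleolar RNAs gave 0 calls in 7 with FFA by limma, with a median log2 difference of 1.09.

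Other genes with large differences had few reads. PSTK, a kinase of the selenocysteine pathway, had 19 and 15 reads in co-culture and 0 and 2 reads in mono-culture. CPSF3, the nuclease of mRNA 3′ end cleavage, had 35 and 18 reads in co-culture and 0 and 10 reads in mono-culture. Both entered the test only through co-culture, where they were high, and mono-culture replicate 1 had 0 reads of each. SPDL1, a spindle checkpoint protein, had 52 and 29 reads in co-culture and 1 and 14 reads in mono-culture (log2 difference 2.30, adjusted p = 0.0181). SPDL1 lost the call without co-culture FFA replicate 1 and without mono-culture FFA replicate 1. SRSF5, a splicing factor with a better measured level, was at 451 and 339 CPM in co-culture and 255 and 148 CPM in mono-culture (log2 difference 1.01 ± 0.21 SE, adjusted p = 0.00554). FOS, an immediate early transcription factor, was the only 1 of 16 immediate early genes to pass, at 88.2 and 76.4 CPM in co-culture and 27.2 and 40.2 CPM in mono-culture (log2 difference 1.29 ± 0.31 SE, adjusted p = 0.021).

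Other lists held 1 call or none. CDK1, the mitotic kinase, was lower at 367 and 455 against 579 and 643 CPM (log2 difference -0.58, adjusted p = 0.0266) and the only 1 of 34 mitosis genes to pass, while the centromere protein CENPF reached 0.99 (adjusted p = 0.0549) in the other direction. ACTG1, cytoplasmic actin, was lower with a log2 difference of -0.50 (adjusted p = 0.0404) among 30 actin cytoskeleton genes, the glucose transporter SLC2A3 was lower at -1.29 (adjusted p = 0.0391) among 19 glycolysis and hypoxia genes, and the linker histone H1F0 was lower at -0.72 (adjusted p = 0.0331) among 10 histone genes. CDK1, ACTG1, SLC2A3 and H1F0 did not pass in DESeq2 or without co-culture FFA replicate 1. In limma's test 0 of 78 ribosomal protein genes passed, with a median of 0.01, and 0 of 30 proteasome genes, with a median of 0.18. It also gave 0 calls among 13 enterocyte brush border genes, 17 junction genes, where the tight junction protein OCLN had -1.25 (adjusted p = 0.0557), 26 DNA replication genes, 14 chaperonin and prefoldin genes and 10 metal response genes, where the metallothionein MT2A had 0.64 (adjusted p = 0.124). Over all genes, 690 had an unadjusted p under 0.05, and edgeR called 176 genes and DESeq2 34.

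**Figure D4:**
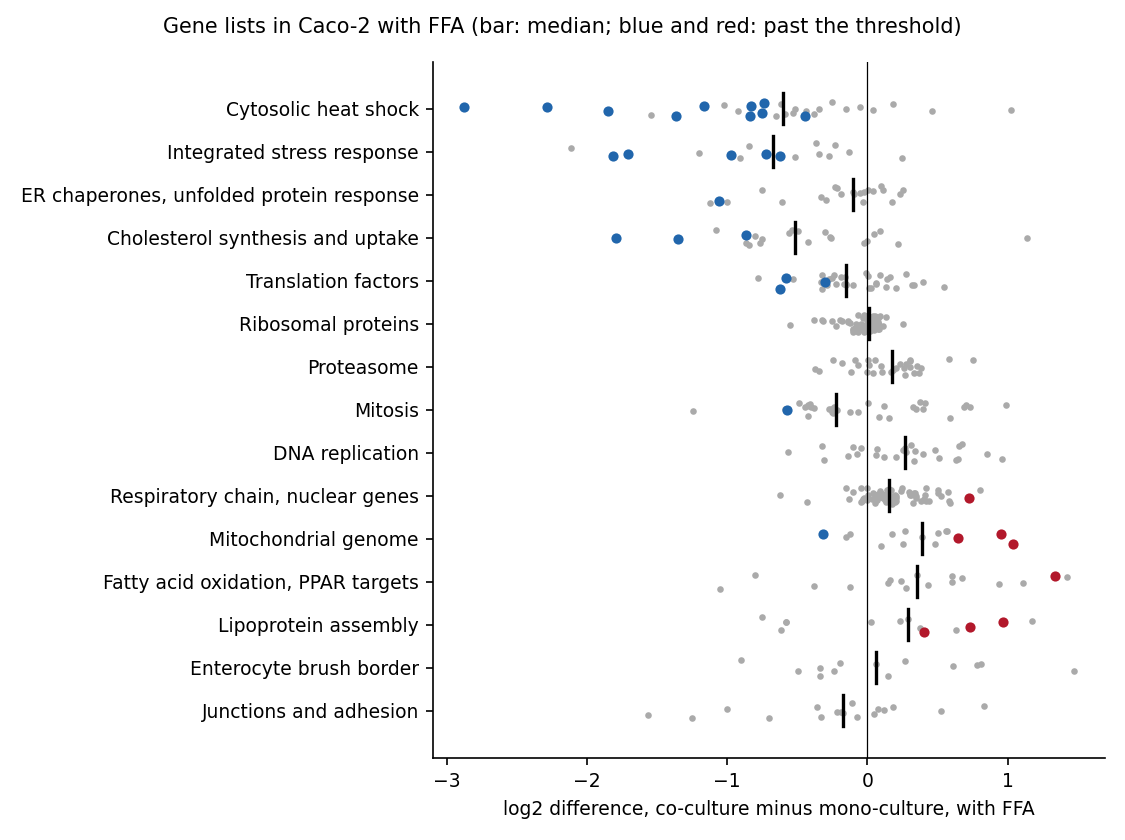
Log2 differences (co-culture minus mono-culture, with FFA) of the tested genes in 15 lists; points are genes, black bars are list medians, and blue or red points passed the threshold. Heat shock, integrated stress response and sterol genes lie mostly left of 0, with medians of -0.60, -0.67 and -0.52, and mitochondrial genome genes mostly right of it, with a median of 0.39.

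The same culture comparison in the 4 control libraries, which share no library with the one above, gave 99 genes higher (1.84%) and 22 lower (0.408%), and the total of 121 became 58, 40, 63 and 75 without co-culture control replicate 1, co-culture control replicate 2, mono-culture control replicate 1 and mono-culture control replicate 2. With median-ratio scaling it was 42 higher and 20 lower. The median log2 difference of all genes without FFA was 0.15, with 62.7% of them above 0, and with median-ratio scaling the median was 0.01. Of the 40 genes higher with FFA, 39 were also above 0 without it, and of the 68 lower, 53 were also below 0, against 60.9% of all genes with the same sign in both. Genes called in both comparisons numbered 24, which was 22.2% of the calls with FFA and 19.8% of the calls without FFA. In the reported fit MT-RNR2 was called in opposite directions (-0.32 with FFA and 0.24 without). Its call with FFA was lost in edgeR, in DESeq2, and after quantile or median-ratio scaling. The other 23 genes kept their direction. They held 18 genes that were higher in co-culture, among them FABP1 (0.85 without FFA), GSTA1 (1.77), MT-CO2 (1.57), FOS (1.74) and RNA5-8SN1 (2.13), and 5 that were lower, among them SLC3A2 (-0.71) and EIF1 (-0.43). The heat shock list had a median of -0.02 without FFA, the sterol list 0.17 and the integrated stress response list -0.18, against 0.15 for all genes. The mitochondrial genome list had a median of 1.22 without FFA with 12 of 15 genes called higher, against 0.39 and 3 with FFA, and the tested RNA5-8SN copies a median of 2.16 without FFA, against 1.80 with it.

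Whether the culture difference itself differed with FFA was tested by the interaction. The median interaction of all genes was -0.14, with 40.2% of them above 0. The test passed in 8 genes (0.148%), among them DNAJB1, DKK1, MT-RNR2, MT-ND4, MSMO1, HSPA1A and HSPA1B. In each, the co-culture difference was lower with FFA than without. The count was 5 without co-culture FFA replicate 1, 5 without mono-culture FFA replicate 1 and 4 without co-culture control replicate 2, and edgeR kept DNAJB1 and DKK1. Without co-culture FFA replicate 1, HSPA1B was at -1.18 and HSPA1A at -1.10 (adjusted p = 0.253 each), and neither passed. For HSPA1A, the control libraries were at 200.1 and 277 CPM in co-culture and 238 and 254 CPM in mono-culture, which overlap, and the interaction was -1.79 on the log2 scale (adjusted p = 0.0246). For DNAJB1 it was -2.49 (adjusted p = 0.000536) and for DKK1 -1.85 (adjusted p = 5.39e-05). For FABP1 it was 0.49 (adjusted p = 0.581) with a 95% interval of 0.10 to 0.89 that takes no account of the number of genes tested, so the co-culture differences of FABP1 with and without FFA were not shown to differ.

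**Figure D5:**
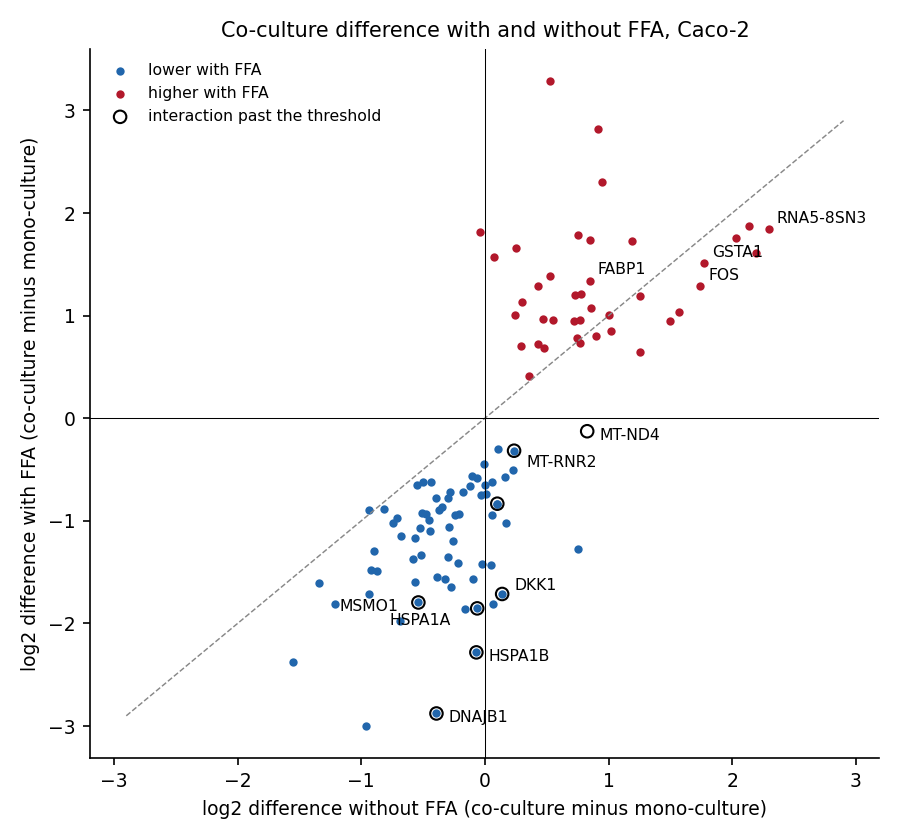
Log2 difference between cultures without FFA (x axis) and with FFA (y axis) for the 108 genes that passed with FFA and for MT-ND4; the dashed line marks equal differences and open circles mark the 8 genes with an interaction past the threshold. Of the 40 higher genes 39 lie in the upper right, while HSPA1A (-1.85 with FFA, -0.06 without) and HSPA1B (-2.28 and -0.07) lie far below 0 on the y axis and near 0 on the x axis.

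Some calls rest on shared reads. Of the 108 genes, 17 overlap another tested gene on the same strand, in 6 cases another called gene. These pairs, named after their values were seen, are AL135905.2 and PTP4A1, AC000120.2 and CYP51A1, AC008750.8 and ETFB, AC106886.5 and TMEM265, AC116366.3 and RAD50, and AMACR and C1QTNF3-AMACR. Another 13 overlap a tested gene on the opposite strand, and it is not stated whether counting used strand.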

How the data were processed

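RNA of Caco-2 and HepG2 cells was made into libraries with a PCR-cDNA barcoding kit and read on a Nanopore device. Per the submitters' processing notes, reads were aligned with minimap2 2.22 to GRCh38; the methods of the study name RSEM and an Ensembl annotation for its mRNA-seq, and which tool counted these reads and whether it used strand are not given in the sources used here. The authors deposited 1 table per library with a value for each of 60623 genes, named as TPM. Each deposited column summed to a common total and its values were whole multiples of the worth of 1 read (at least 99.8% within 0.1 read in each Caco-2 library), so the values were taken as CPM, scaled by the authors to the total of each library with no correction for length, and whole reads were recovered from them.

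Genes averaging 10 CPM or more over the 4 FFA libraries were kept, and log2(CPM + 1) was fitted with limma 3.58.1 (R 4.3.3), with 1 mean for each of the 4 Caco-2 groups, 2 libraries each, an intensity-dependent prior variance and Benjamini-Hochberg adjustment at 0.05. Differences are co-culture minus mono-culture on this scale, which understates changes of low genes. Errors are SE with 4 residual and 28.8 prior degrees of freedom. For single genes, an exact permutation test of 2 against 2 libraries cannot go below p = 0.333 and was not used. The tests had been planned for TPM, and the same ones were used for CPM. On the recovered reads edgeR 4.0.16 (quasi-likelihood test) called 176 genes and DESeq2 1.42.0 called 34. Gene coordinates and biotypes came from GENCODE 44, which matched 60295 of the identifiers.

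The genes and the 33 lists were chosen with earlier results of these data known, and so were the tests. Genes named were those with the smallest adjusted p (up to 30), the 5 largest differences in each direction among calls with groups that do not overlap, up to 4 members of each list with the smallest p, up to 5 with an interaction, and all heat shock genes; those named by no part of this rule are said to be chosen after their values were seen. The labels' replicate numbers were not used to pair libraries, since no label says what they mark. Deviations of same-numbered libraries from their group means correlated at 0.0685 between the FFA groups over all tested genes and at 0.22 over the 1143 genes of at least 100 CPM. Some genes that entered the counts are not reported here. Libraries of HepG2 cells were used for marker levels only. Alternatives covered pseudocount, filters, scaling, the prior, a replicate block, the tool, thinning to the shallowest library and leaving out each replicate.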

Additional observations from a re-analysis of the deposited data

Results flagged for a closer look

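Results stand here where the co-culture difference with FFA and that without FFA differed by an interaction test in limma (adjusted p under 0.05). The values are the log2 difference with FFA minus that without. The test passed in 8 genes, all below 0, of which 7 are given, and the median over all genes was -0.14.

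DNAJB1 had the largest interaction, -2.49 (adjusted p = 0.000536), followed by HSPA1B at -2.21 (adjusted p = 0.0374) and HSPA1A at -1.79 (adjusted p = 0.0246). The co-culture FFA libraries of these heat shock genes were the lowest of the 8 Caco-2 libraries, and the control libraries of the cultures overlapped. HSPA1A and HSPA1B share most of their sequence. Without co-culture FFA replicate 1, their interactions were -1.10 and -1.18 (adjusted p = 0.253 each).

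DKK1 had an interaction of -1.85 (adjusted p = 5.39e-05). With FFA its libraries were at 247 and 230.4 CPM in co-culture and 883 and 697 CPM in mono-culture, and without FFA at 466 and 398 CPM in co-culture and 482 and 317 CPM in mono-culture. MSMO1 had an interaction of -1.26 (adjusted p = 0.0208).

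From the mitochondrial genome, MT-ND4, a subunit of complex I, had an interaction of -0.95 (adjusted p = 0.00381), with a log2 difference of -0.13 with FFA and 0.83 without. MT-RNR2 had an interaction of -0.55 (adjusted p = 0.000295). That of MT-RNR2 was 0 with quantile scaling, -0.427 with median-ratio scaling, -0.422 in edgeR and -0.425 in DESeq2, and it passed in none of these.

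Across the alternatives in which a gene could be tested, the interaction of DKK1 passed in 20 of 22, that of DNAJB1 in 19 of 22, MT-ND4 in 15 of 21, MT-RNR2 in 14 of 21, HSPA1A in 8 of 22, MSMO1 in 7 of 22 and HSPA1B in 6 of 22.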

How the results depend on the processing

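The count of genes past the threshold with FFA (108) was within 1.5 times under pseudocounts of 0.1 and 10, a filter of 50 CPM, quantile and median-ratio scaling, a fit of the 4 FFA libraries alone and without mitochondrial genes. It was 15 with a filter of a mean of at least 1 CPM in a group, 34 without a filter, 0 with constant prior variance, 176 in edgeR, 34 in DESeq2, 681 where an unadjusted p of 0.05 and a 1.2-fold change sufficed, 65 after thinning every library to the shallowest (chosen after seeing the data), and 21 to 116 with 1 library left out. The replicate block gave 173, which held all 108, and edgeR with the replicate block (added after seeing the data) 293. Same-numbered libraries correlated at up to 0.0779 over all genes and at -0.0172 to 0.291 over genes of at least 100 CPM, and no label says that the numbers pair them. For the culture effect without FFA (121) these alternatives gave 15, 42, 0, 65, 51, 837, 59 and 40 to 124, the replicate block 223 and edgeR with the block 193. Quantile scaling gave 46 and median-ratio scaling 62, of which 67.7% were higher against 81.8% in the reported fit, 64.6% in edgeR and 41.2% in DESeq2. For the interaction (8) they gave 0, 4, 0, 2, 1, 355, 4 and 4 to 11, the replicate block 22 and edgeR with the block 15, and a pseudocount of 0.1 gave 5, quantile scaling 4 and median-ratio scaling 2. The HepG2 marker signal, a difference of 4.57 percentage points over 18 markers, was 0.351 over 42 markers chosen by level. Fewer libraries are left where 1 is left out and more genes are tested under the looser filters; otherwise the cause was not tested.

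Of 36 named genes followed through 23 alternatives, 0 reversed. In 690 of 810 cases the gene kept its side of the threshold and in 120 its call was lost. DNAJB1, MSMO1, DKK1, FABP1, the 4 RNA5-8SN copies, HSP90AA1 and AL135905.2 were among the genes that passed under every alternative except constant prior variance, whereas STIP1 passed in 10 of 23. The median SE was 0.53 on the log2 scale for genes between 10 and 30 CPM and 0.0981 from 1000 CPM upwards, and the smallest difference that passed was 1.42 and 0.30 in size.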

Other observations

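Several lists with few calls had most of their members on one side of 0 with FFA, while 46.9% of all genes lay below it. Chaperonin and prefoldin genes, which fold newly made proteins such as actin and tubulin, were lower in 12 of 14 cases, with a median log2 difference of -0.12. Long RNAs that host small nucleolar RNAs were lower in 15 of 17, among them SNHG32, with the smallest p of the list, at 958 and 1101 against 1185 and 1384 CPM (log2 difference -0.32, adjusted p = 0.198). Metal response genes were higher in 8 of 10, proteasome genes in 22 of 30 and DNA replication genes in 19 of 26, with a median of 0.27 in the last. Members of a list share regulation and libraries and are not independent.

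The log2 difference with FFA had a Spearman correlation of -0.0917 with transcript length across 5375 genes, with medians of 0.0975 among the shortest transcripts and -0.0006 among the longest. Genes are not independent replicates. The co-culture libraries with FFA were deeper than the mono-culture ones, at 974654 and 811671 against 404378 and 622280 reads. With every library thinned to the shallowest, 65 genes passed, 57 of them among the 108, and the medians of the heat shock and integrated stress response lists were -0.64 and -0.75. The part of length in the comparison was not tested.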
